A study of Mus musculus with 12 samples.

Results

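The change of m6A enrichment with UV was the shift, between UV-exposed and control mouse skin, in the amount of each transcript recovered by an m6A antibody relative to its input. It was computed per gene as the log2 ratio of IP over input in UV samples minus the same ratio in control samples, with the IP and input libraries of a sample joined by its number. All 12 libraries of the series were used, and 25022 of the 49492 genes in the deposited count table had enough reads to be tested. Per the labels, the 12 libraries came from 3 control and 3 UV samples of skin, each sequenced once after enrichment with an m6A antibody (IP) and once without (input). The series is named for the writer subunit KIAA1429 (Virma), Mfap4 and collagen synthesis in photoaging. For the strain, age and sex of the mice, the kind, dose and timing of UV, and the antibody, no details are given in the labels used. These also leave unstated whether each sample was a separate animal, so p-values measure the spread between these samples.

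N6-methyladenosine (m6A) is a methyl mark placed on adenosines of messenger RNA by a complex of the catalytic pair Mettl3 and Mettl14 with Wtap, Virma, Zc3h13 and other subunits. It is removed by Fto and Alkbh5 and bound by reader proteins such as the Ythdf family, which influence the stability and translation of the marked transcript. Marks concentrate in long internal exons and in the last exon near the stop codon. A ratio of IP over input above 0 on the log2 scale means that a transcript was over-represented after the antibody, relative to the other transcripts of the same library. The ratio is relative, so a change common to all transcripts cannot be seen in it.

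Each library held between 24126662 and 92163619 reads in genes, of which 20.7% to 27.0% fell on its top 10 genes. The basal keratinocyte markers summed to 4834 to 9571 CPM (counts scaled to library size) in control input and 9582 to 14152 CPM in UV input, and the fibroblast markers to 6589 to 7077 and 4815 to 5459 CPM. These markers of skin were thus present in every input library. The skeletal muscle markers summed to 12624 to 28041 CPM in control input and 5646 to 15593 CPM in UV input. T cell markers summed to 14.5 to 19.0 and 5.17 to 6.59 CPM. In bulk skin, fewer cells of a type and less RNA per cell cannot be told apart. The part of these shifts in the change of enrichment was not tested.

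The strength of enrichment as a whole was measured first. The spread of log2 IP over input across genes (its SD) was 0.910, 1.00 and 1.02 in the control samples and 0.957, 0.881 and 0.929 in the UV samples, which overlap. Among genes with at least 5 CPM in input, the SD was 0.790 ± 0.016 (SD, n = 3) in control and 0.745 ± 0.011 (SD, n = 3) in UV, and the groups did not overlap. An exact two-sided permutation test gave p = 0.1 for this difference, the smallest value that 3 against 3 samples allow. Zinc finger genes, whose transcripts were enriched, lay above ribosomal protein genes by a median of 1.09 ± 0.075 in control and 1.02 ± 0.017 in UV (SD, n = 3, exact two-sided permutation p = 0.2). Across all tested genes the median change was 0.00.

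Against this background, 399 genes (1.59% of those tested) passed the test, at an adjusted p below 0.05 in edgeR's quasi-likelihood test. IP over input was higher after UV for 211 genes (0.843% of those tested) and lower for 188 (0.751%). Before adjustment, 2861 genes had a p below 0.05. The directions differed in the kinds of transcript they held. Of the genes that rose, 36 were protein coding (0.225% of 15981 coding genes), 115 changed at least 2-fold and the median size was 1.05 on the log2 scale. Of those that fell, 143 were protein coding (0.895%), 1 changed at least 2-fold and the median size was 0.33. Nearest to the threshold were Krtap3-2, a hair keratin-associated protein, just inside it (0.50, adjusted p = 0.0497) and Ccdc47 just outside it (−0.25, adjusted p = 0.0502).

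The calls rested on joining IP and input of the same sample. Fitted without that replicate block, on 4 group means, the test called 3 genes, all higher, with 1109 at an unadjusted p below 0.05. The count also moved with single samples: it was 1503 without Control 2, 325 without Control 1 and 166 without Control 3, and 128, 206 and 183 without UV 1, 2 and 3. Scaling by library size alone, without TMM factors, gave 312 higher and 39 lower calls, against 211 and 188, while the median gene moved to 0.09. DESeq2's Wald test gave an adjusted p to 8043 genes and called 77 higher and 382 lower. Of 98 called genes considered for naming, 57 stayed called under library size scaling. Without the low-count filter 81 of the 98 stayed called, and with limma 88. Genes named below and lost without the filter were Gpx3, Car3, Soat1, Rps14, Rps3, Eif4e2, Rbm17, Nabp1, Hspa9, Ldb1, Ifi30, Eloc, Ppp2r2a, Msmo1 and Sdc3. Those lost with limma were Akr1d1, Rps3, Tchh, Pet100, Ppp2r2a, Msmo1 and Sdc3. In what follows, a call that is lost when 1 sample is left out is given with those samples and the largest adjusted p over the 6 leave-out fits.

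Virma did not pass the test. Its log2 IP over input was 0.96, 0.58 and 0.82 in the control samples 1 to 3 and 0.59, 0.59 and 0.45 in the UV samples. The UV values sat at the lower end of the control range and touched it. The change was −0.25 (SE 0.08, adjusted p = 0.151), with −0.15 (adjusted p = 0.503) when scaled by library size alone. It ranged from −0.35 to −0.16 over the leave-out fits, and only the fit without Control 2 called it. Mfap4, which encodes a microfibril-associated glycoprotein of the dermis, had −0.23, −0.26 and −0.38 in control and −0.07, 0.20 and 0.09 in UV. All 3 UV values lay above all 3 control values, but the change of 0.37 (SE 0.12) had an adjusted p of 0.146. Groups that did not overlap, as for Mfap4, were found for 17.0% of all tested genes. Scaled by library size alone, the Mfap4 change was 0.46 with an adjusted p of 0.0482.

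None of the 9 writer genes and none of the 16 reader and eraser genes passed edgeR's test, with 2 and 3 of them at an unadjusted p below 0.05. DESeq2, which gave an adjusted p to 8 of the 9 and 13 of the 16, called 1 writer gene, Zc3h13, and no reader or eraser. With limma none was called. The median change was −0.07 among the writers and −0.06 among the readers and erasers. Zc3h13, which anchors the writer complex in the nucleus, came closest, with 1.35, 1.51 and 1.36 in control and 1.15, 1.25 and 1.12 in UV (−0.23, SE 0.06, adjusted p = 0.0544). Its UV values were all below its control values. For the catalytic subunits, the change was −0.07 (SE 0.12) for Mettl3 and −0.08 (SE 0.08) for Mettl14, with adjusted p of 0.894 and 0.797, and under library size scaling both turned to 0.02. The eraser Fto had −0.16 (SE 0.07, adjusted p = 0.387).

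**Figure D1:**
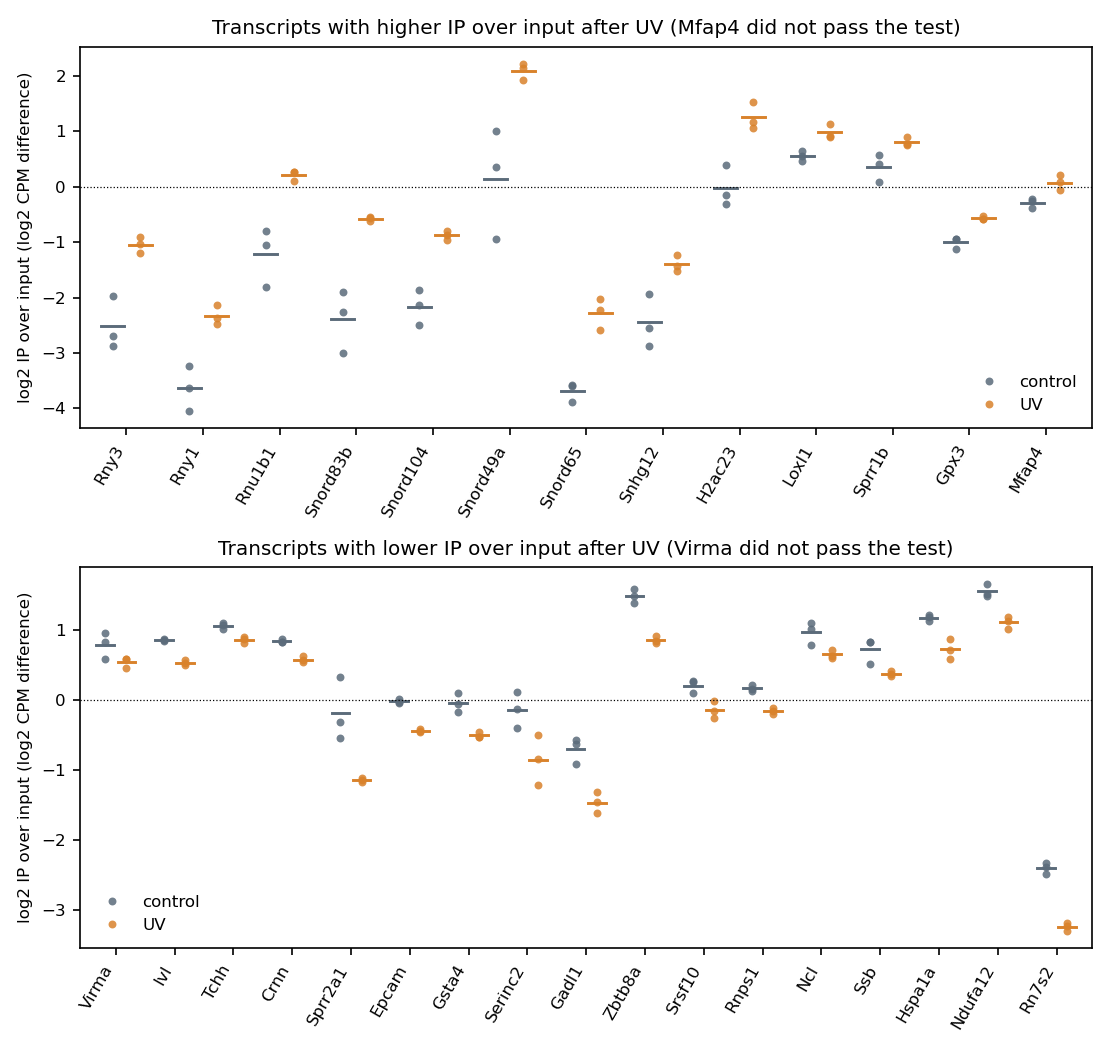
Log2 IP over input (y axis, difference of log2 CPM) of named transcripts in each of 3 control (grey) and 3 UV samples (orange), with the mean as a bar. Upper panel, transcripts that were higher after UV, with Mfap4 beside them. Lower panel, transcripts that were lower, with Virma beside them; for Ivl the 3 control values lie between 0.84 and 0.88 and the 3 UV values between 0.50 and 0.57.

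Transcripts of the cornified envelope, the protein shell of the outermost epidermal cells, stood among those that fell. Ivl encodes involucrin, an early envelope scaffold. Its log2 IP over input was 0.85, 0.88 and 0.84 in control and 0.53, 0.57 and 0.50 in UV. Both groups were tight and far apart. The change was −0.32 (SE 0.05, adjusted p = 0.00141), and it passed in all 6 fits that left out a sample, but not with library size scaling alone. Tchh, the trichohyalin of the hair root sheath, went from 1.01, 1.10 and 1.07 to 0.81, 0.90 and 0.87 (−0.20, SE 0.04, adjusted p = 0.0082). That call was lost without Control 3 or UV 1 (adjusted p up to 0.104), and with DESeq2 and limma. Perp, a desmosome component and p53 target, fell from −0.85, −0.76 and −0.78 to −1.08, −1.06 and −1.14 (−0.29, SE 0.05, adjusted p = 0.00256), in all 6 leave-out fits. A stretch of Perp, at chr10:18845109-18845256 (GRCm38), did not fall in the authors' own test of the deposited peaks (log2 change 1.01, FDR 0.145). Library size scaling ended the calls of Tchh and Perp too (adjusted p of 0.417 and 0.129).

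Among all 60 tested genes whose names belong to the epidermal differentiation complex, a list written after the values had been seen, 7 fell and 2 rose, and the median change was 0.08. Crnn (−0.26, adjusted p = 0.0104), Rptn (−0.25, adjusted p = 0.0173), Tchhl1 (−0.24, adjusted p = 0.0188) and Lce1g (−0.41, adjusted p = 0.00478) fell with Ivl and Tchh. Lce1g lost its call without UV 1 (adjusted p = 0.0826), and the other 3 without Control 3, UV 1 or UV 2, Rptn and Tchhl1 also without UV 3 (adjusted p up to 0.182). Crnn, Rptn and Tchhl1 also lost their calls under library size scaling (adjusted p up to 0.328). Sprr2a1, a small proline-rich envelope protein, went from −0.32, 0.33 and −0.54 to −1.16, −1.15 and −1.12 (−0.76, SE 0.11, adjusted p = 0.00058). It has near-identical neighbours, so its reads may be split among them. The relatives Sprr1a and Sprr1b rose instead. Sprr1b, which marks stressed epidermis, had 0.09, 0.58 and 0.40 in control and 0.78, 0.76 and 0.89 in UV. The change was 0.50 (SE 0.10, adjusted p = 0.00842), and the call was lost when Control 1, UV 1 or UV 3 was left out (largest adjusted p 0.0747). For Sprr1a the change was 0.31 (SE 0.07, adjusted p = 0.0173), lost without any of the UV samples (adjusted p up to 0.147).

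Epcam, an adhesion protein of epithelial and Langerhans cells, had the smallest adjusted p of all coding genes that fell. Its ratio was −0.02, −0.05 and 0.01 in control and −0.42, −0.45 and −0.44 in UV. No sample of one group came near the other. The change was −0.42 (SE 0.06, adjusted p = 0.000343), called in all 6 leave-out fits and under library size scaling. A stretch of Epcam, at chr17:87636724-87636814 (GRCm38), did not fall in the authors' own test of the deposited peaks (log2 change 1.401, FDR 0.96). Its sign was opposite to that of the gene, and it did not pass that test. Among the other genes of the skin lists, Gsta4, a glutathione transferase for lipid peroxidation products, fell by 0.42 (SE 0.09, adjusted p = 0.0173; lost without Control 1 or any UV sample, adjusted p up to 0.129). Krt86, a hair cortex keratin, fell by 0.38 (SE 0.07, adjusted p = 0.00485; lost without UV 1, adjusted p = 0.0754). Soat1, which esterifies cholesterol in sebocytes, fell by 0.25 (SE 0.06, adjusted p = 0.0364; lost without any sample but Control 2, adjusted p up to 0.196).

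The remaining coding genes with the largest drops had varied roles. Gadl1, an amino acid decarboxylase of muscle and other tissues, went from −0.57, −0.91 and −0.63 to −1.46, −1.62 and −1.31 (−0.78, SE 0.11, adjusted p = 0.000367). Zbtb8a, a zinc finger gene, went from 1.49, 1.38 and 1.58 to 0.81, 0.91 and 0.84 (−0.64, SE 0.10, adjusted p = 0.0015). Both held in all 6 leave-out fits. Serinc2 fell by 0.69 (SE 0.14, adjusted p = 0.013; lost without UV 1 or UV 3, adjusted p up to 0.138), and Akr1d1, a steroid reductase, by 0.61 (SE 0.14, adjusted p = 0.0252; lost when Control 1, Control 3, UV 1 or UV 3 was left out, adjusted p up to 0.208). The drop listed for Cd247, a T cell receptor chain (−0.55, SE 0.13, adjusted p = 0.0297), is uncertain. Of its exon bases 56.4% are shared with Pou2f1, and of the leave-out fits only the one without Control 2 called it (adjusted p up to 0.157). Library size scaling ended the calls of Gsta4, Soat1, Akr1d1 and Cd247 (adjusted p of 0.0789, 0.324, 0.0634 and 0.10).

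The genes Rnps1, Srsf10, Ncl, Ssb, Safb, Rbm17 and Pabpc1 fell. Except for Srsf10, they were chosen after their values had been seen. Rnps1, a splicing activator of the exon junction complex, changed side under TMM scaling, from 0.15, 0.13 and 0.22 to −0.19, −0.15 and −0.11 (−0.32, SE 0.07, adjusted p = 0.0165). Srsf10, a splicing factor of the SR family, went from 0.27, 0.10 and 0.25 to −0.25, −0.01 and −0.15 (−0.34, SE 0.07, adjusted p = 0.018). Ncl, the nucleolin of ribosome assembly, went from 1.10, 0.79 and 1.02 to 0.63, 0.72 and 0.61 (−0.32, SE 0.06, adjusted p = 0.0102). In each case the groups did not overlap, as in nearly all called genes. Ssb, the La protein that binds the ends of small RNAs, fell by 0.35, Safb by 0.27, Rbm17 by 0.27 and the poly(A)-binding protein gene Pabpc1 by 0.24. The calls of these genes were lost without Control 3, UV 1 or UV 3, for Rnps1, Ssb and Rbm17 also without UV 2, for Srsf10 without Control 1, and for Pabpc1 without either (adjusted p up to 0.222). All were lost under library size scaling (adjusted p up to 0.377). Among the 22 SR protein and hnRNP genes, whose median change was −0.12 with 5 of 22 above 0, edgeR called Srsf10 alone and DESeq2 called 5.

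Ribosomal protein transcripts moved both ways. Of 89 tested, 6 rose and 6 fell, and the median was 0.02. Rpl37 went from −0.67, −0.83 and −0.70 to −1.03, −1.19 and −1.17 (−0.40, SE 0.06, adjusted p = 0.00141), in all 6 leave-out fits. Rplp2, a stalk protein, fell by 0.37 (SE 0.06, adjusted p = 0.00198; adjusted p = 0.0517 without UV 1), and Rpl26, Rpl13a and Rpl17 fell by 0.32 each. These 3 lost their calls under library size scaling and without UV 1, Rpl26 also without Control 3, and Rpl17 without any sample but Control 2 (adjusted p up to 0.216). Rpl13a shares 29.4% of its exon bases with Flt3l. Of the rises, Fau (0.28), Rps14 (0.27), Rps28 (0.34) and Rps3 (0.25) lost their calls without Control 3, UV 1 or UV 3, Rps28 also without UV 2, and Rps14 and Rps3 also without Control 1 or UV 2 (adjusted p up to 0.303). Many of these genes have processed copies that can share their reads.

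The few calls among translation initiation and nuclear respiratory chain genes were falls. Of all tested coding genes 0.895% fell and 0.225% rose, so few rises would be found in lists of this size. Of 59 initiation factor genes, a list written after the values had been seen, Eif3b (−0.26), Eif3g (−0.36, adjusted p = 0.00314) and Eif4e2 (−0.25) fell and none rose, with a median of −0.09. Eif3b and Eif4e2 kept their calls only without Control 2, Eif3g lost its call without Control 3 or UV 1, and all were lost under library size scaling (adjusted p up to 0.339). Of 89 nuclear genes of the respiratory chain, 4 fell and none rose, with a median of −0.01. Ndufa12, an accessory subunit of complex I, had 1.52, 1.65 and 1.49 in control and 1.01, 1.13 and 1.18 in UV (−0.44, SE 0.07, adjusted p = 0.00089, in all 6 leave-out fits). Its transcript stayed enriched in all 6 samples. Among the 33 genes of the mitochondrial genome, 4 rose and 1 fell, against 0.843% and 0.751% of all tested genes. The 16S ribosomal RNA mt-Rnr2 rose from −3.31, −1.51 and −1.75 to −0.47, −1.01 and −0.97 (1.32, SE 0.27, adjusted p = 0.012), but DESeq2 did not call it, and without UV 1 the change was 1.16 and the adjusted p 0.165. Without Control 1 the change of mt-Rnr2 was 0.80, still called. The transfer RNA mt-Te rose by 0.78 (SE 0.13, adjusted p = 0.00145) and mt-Nd6, a complex I subunit encoded on the same strand, fell by 0.27 (SE 0.06, adjusted p = 0.0121). The latter call was lost without Control 3 or UV 1 (adjusted p up to 0.157) and under library size scaling (adjusted p = 0.235).

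The neighbouring heat shock genes Hspa1a and Hspa1l moved in opposite directions. They were chosen after their values had been seen and encode chaperones of the same family. Hspa1a went from 1.18, 1.21 and 1.13 to 0.72, 0.87 and 0.59 (−0.45, SE 0.07, adjusted p = 0.00145). Hspa1l went from 0.63, 0.58 and 0.42 to 1.56, 1.42 and 1.65 (1.00, SE 0.10, adjusted p = 1.7e-05). Both changes passed in all 6 leave-out fits. The exons of Hspa1l share 71.9% of their bases with the predicted gene Gm10501, and Hspa1a has a near-identical copy, so the division of reads among them is uncertain. Of 78 heat shock and DnaJ genes, 3 fell and 1 rose, against 0.751% and 0.843% of all tested genes.

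Coding genes that rose included few matrix genes. Loxl1, a lysyl oxidase that cross-links elastin, had 0.56, 0.65 and 0.46 in control and 0.91, 1.14 and 0.90 in UV (0.44, SE 0.10, adjusted p = 0.0275). The groups did not overlap, as in nearly all called genes, and the call was lost without Control 3 or any UV sample (adjusted p up to 0.232). Loxl1 was the only gene of 29 for collagen processing to pass. None of 16 interstitial collagens (median 0.07), 19 elastic fibre and microfibril genes (median 0.11), 16 proteoglycans (median 0.10), 16 metalloproteinases and inhibitors (median 0.09) or 17 TGF-beta pathway genes (median 0.08) was called. The medians of these 5 lists lay above the 0.00 of all genes. At an unadjusted p below 0.05, edgeR had no collagen and 3 genes in each of the other 4 lists. Neither DESeq2 nor limma called a gene in any of the 5. DESeq2 gave an adjusted p to only 15, 10, 10, 5 and 14 of these genes, in list order, and could not call the rest.

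Gpx3, a secreted glutathione peroxidase, rose from −0.94, −0.94 and −1.12 to −0.58, −0.52 and −0.58 (0.44, SE 0.10, adjusted p = 0.0325), and Car3, a carbonic anhydrase of fat and muscle, by 0.31 (SE 0.06, adjusted p = 0.0124). Both calls were lost without Control 3 or any UV sample (adjusted p up to 0.209). Histone genes gave 3 rises and no fall among 71 tested, against 0.843% and 0.751% of all tested genes. H2ac4 went from 0.94, 0.89 and 0.84 to 1.63, 1.5 and 1.81 (0.76, SE 0.09, adjusted p = 0.000113), and H2ac23 from −0.14, 0.39 and −0.32 to 1.18, 1.06 and 1.53 (1.31, SE 0.20, adjusted p = 0.000977). Both held in all 6 leave-out fits. H4c17 rose by 0.64, with a call lost in every leave-out fit but that without Control 2 (adjusted p up to 0.176).

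Short and noncoding transcripts made up much of what rose. Among tested genes of at most 200 exon bases, 77 of 1174 rose (6.56%) and 5 fell, while in the longest length class 2 of 2341 rose and 18 fell. By RefSeq class, 28 of 167 small nuclear RNAs (16.8%), 22 of 216 small nucleolar RNAs (10.2%), 4 of 24 guide RNAs and both Y RNAs rose. More of the rises were pseudogenes, 51 of 2082 (2.45%), or genes without a RefSeq match, 52 of 4468 (1.16%). Of the 211 that rose, 126 had Gm or Rik names. The genes that rose had a median exon length of 387 bases, against 2690 for those that fell and 2748 for all tested. Of the 211 that rose, 140 were depleted in the control IP, as were 31.1% of all tested genes. The control ratio is part of the change, so picking genes that rose favours low control ratios. In UV 30.4% of tested genes were enriched and 30.1% depleted.

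**Figure D2:**
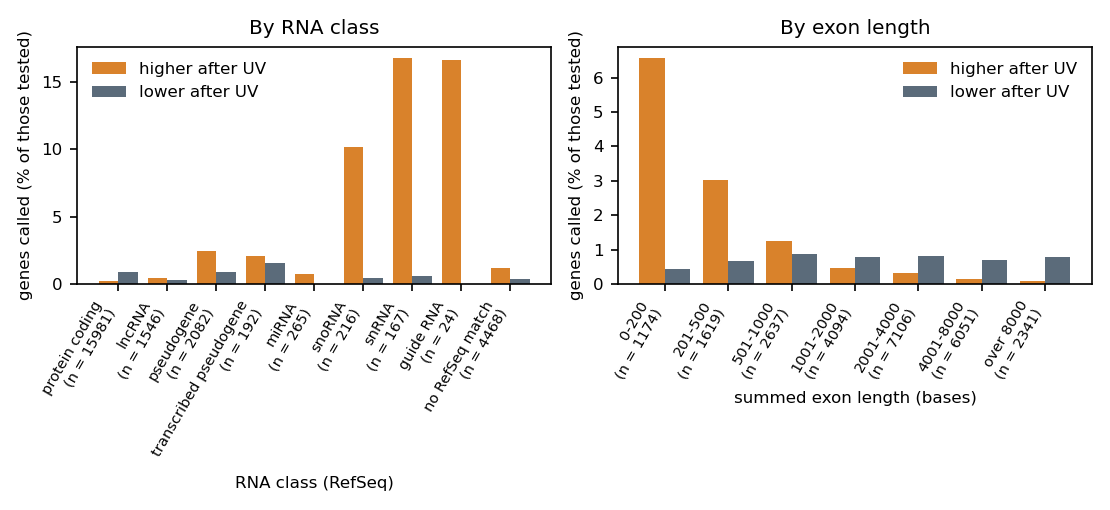
Share of tested genes (y axis, %) whose IP over input was higher (orange) or lower (grey) after UV, by RefSeq class (left) and by summed exon length in bases (right), with the number tested under each bar pair. The share that rose was 6.56% at up to 200 bases and 0.0854% in the longest class, while the share that fell stayed between 0.426% and 0.872%.

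The Y RNAs are short RNAs bound by the Ro protein. Rny3 (chr6:47781624-47781725, GRCm38) had −2.87, −1.98 and −2.70 in control and −0.91, −1.19 and −1.03 in UV (1.41, SE 0.16, adjusted p = 4.2e-05). Rny1, its neighbour at chr6:47788069-47788180, had −4.04, −3.23 and −3.63 in control and −2.47, −2.37 and −2.14 in UV (1.25, SE 0.20, adjusted p = 0.00112). Both stayed below 0 in every sample. Rnu1b1, a U1 spliceosomal RNA, moved from −1.81, −0.79 and −1.05 to 0.27, 0.11 and 0.27 (1.44, SE 0.17, adjusted p = 5.24e-05). All 3 changes held in every leave-out fit. Copies of these RNAs elsewhere in the genome can share their reads.

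Small nucleolar RNAs guide the modification of ribosomal RNA. Of 108 tested by name, 15 rose and none fell, and the median change was 0.57. Snord83b went from −1.89, −2.25 and −3.0 to −0.55, −0.61 and −0.57 (1.74, SE 0.23, adjusted p = 0.000222). Snord104 went from −2.13, −1.86 and −2.49 to −0.80, −0.88 and −0.95 (1.24, SE 0.16, adjusted p = 0.000174). Snord49a had the widest control spread, with −0.95, 1.00 and 0.35 in control and 2.21, 1.94 and 2.14 in UV (2.01, SE 0.30, adjusted p = 0.000628). These 3 held in all 6 leave-out fits. Snord65 rose by 1.37 (SE 0.27, adjusted p = 0.0091; lost when Control 3, UV 1 or UV 2 was left out, adjusted p up to 0.101), and AF357425, within the long noncoding RNA Rian, by 1.34 (SE 0.22, adjusted p = 0.0016). DESeq2 gave no adjusted p for Snord83b, Snord104, Snord65 and AF357425.

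Host transcripts, which carry nucleolar RNAs in their introns, were also examined. Of 17 tested, a list written after the values had been seen, 4 rose and none fell, with a median of 0.25. Snhg12 went from −2.87, −1.93 and −2.54 to −1.23, −1.52 and −1.44 (1.03, SE 0.15, adjusted p = 0.000508). Snhg1 rose by 0.53 (SE 0.07, adjusted p = 0.000293) and Gas5 by 0.39 (SE 0.07, adjusted p = 0.00245), and these 3 held in all 6 leave-out fits. Snhg3 rose by 0.60 (SE 0.13, adjusted p = 0.0166), lost without Control 3 or any UV sample (adjusted p up to 0.138).

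The 7SL RNAs, the RNA core of the signal recognition particle, differed in direction, but the rise of Rn7s1 was not called by DESeq2. Rn7s1 rose from −1.49, −0.96 and −1.30 to −0.68, −0.90 and −0.63 (0.51, SE 0.09, adjusted p = 0.00255; adjusted p = 0.0517 without UV 1). Rn7s2 fell from −2.33, −2.38 and −2.48 to −3.23, −3.18 and −3.29 (−0.84, SE 0.05, adjusted p = 2.13e-09), and Rn7s6 fell by 0.66 (SE 0.10, adjusted p = 0.00109). The fall of Rn7s2 held in all 6 leave-out fits and had the smallest p of the table, together with AC157822.2, which lies inside it. AC099934.1 (1.23) lies almost wholly within Rn7s1 and AC156953.1 (−0.88) within Rn7s6. These genes are near-identical in sequence, so how reads were divided among them is uncertain. AY036118, inside Gm42418 on the opposite strand, went from −2.38, −0.07 and −1.87 to 2.5, 1.83 and 1.75 (3.27, SE 0.38, adjusted p = 5.58e-05, in all 6 leave-out fits).

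Of 266 microRNA genes, 2 rose, close to the share of all tested genes that rose (0.843%), and none fell. One was Mir3068, with −3.22, −3.02 and −3.27 in control and −2.14, −1.99 and −1.29 in UV (1.38, SE 0.24, adjusted p = 0.00312, in all 6 leave-out fits). The counted feature is a precursor of 139 bases, of which 95.7% overlaps the predicted gene Gm29362, so reads cannot be assigned to the mature products. The mature strands are shown because they identify the locus, from RefSeq (GRCm38.p6), 5′ to 3′ with the seed (bases 2 to 8) in capitals.
mmu-miR-3068-5p: uUGGAGUUcaugcaaguucuaacc
mmu-miR-3068-3p: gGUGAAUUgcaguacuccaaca
The seeds of the arms differ.

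Of 193 pseudogenes named for ribosomal proteins, 10 rose and 3 fell, a list written after the values had been seen. Among all tested genes 0.843% rose and 0.751% fell. Rps6-ps3 fell from 1.16, 0.96 and 1.04 to 0.43, 0.57 and 0.34 (−0.61, SE 0.08, adjusted p = 0.000215, in all 6 leave-out fits). Rpl15-ps3 fell by 0.71 (SE 0.14, adjusted p = 0.0111; lost when Control 1, UV 1 or UV 3 was left out, adjusted p up to 0.0986). Their reads can come from the parent genes.

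The comparisons of UV with control within input and within IP use the same libraries as the ratio, so their values are given beside it and not as separate support. In input 5.83% of genes were called (3.02% higher and 2.81% lower after UV) and in IP 2.5% (1.45% higher and 1.05% lower). For the 211 genes that rose in ratio, the median UV change was −0.99 in input and 0.05 in IP. For the 188 that fell, it was 0.39 in input and 0.06 in IP. Rny3 had −1.46 in input and −0.12 in IP, and Snhg12 −1.08 and −0.12. Ncl had 0.49 in input and 0.19 in IP, and Ndufa12 0.61 and 0.18. Epcam and Ivl ran otherwise, with 0.08 and 0.05 in input and −0.34 and −0.27 in IP. Gadl1 was lower in both, by −1.22 and −2.0.

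**Figure D3:**
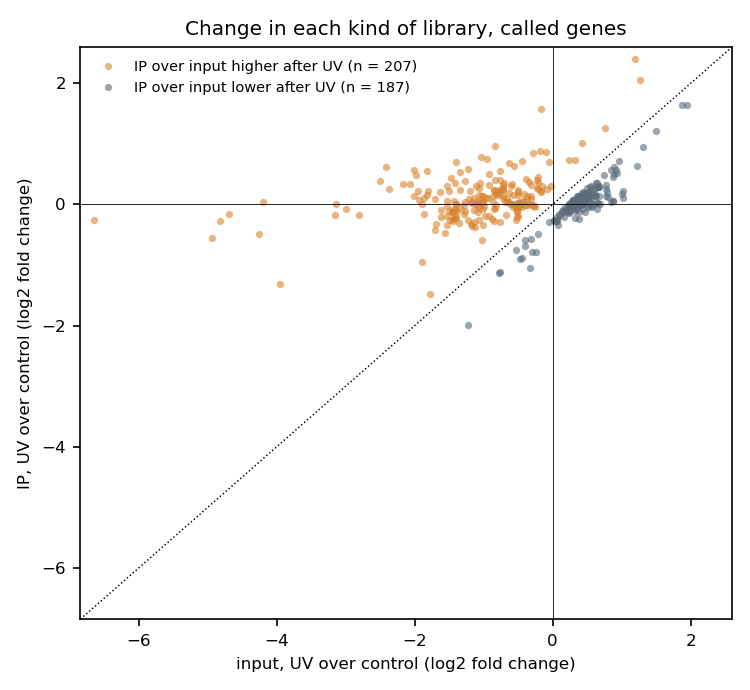
UV over control in input (x axis, log2 fold change) against UV over control in IP (y axis, log2 fold change) for called genes measured in both, 207 higher (orange) and 187 lower (grey) in IP over input. By construction called genes lie off the dotted line of equal change; those that rose spread to the left along the input axis, with a median of −0.99 in input and 0.05 in IP.

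Calls were also counted by level of enrichment. Ranked by mean ratio over all 6 samples, genes with at least 5 CPM in input were divided into quintiles. In the most enriched quintile 69 of 2363 genes fell (2.92%) and 26 rose, and in the least enriched 75 rose (3.17%) and 32 fell. The median change ran from 0.00 in the least to −0.05 in the most enriched quintile. Of the 143 coding genes that fell, 99 were enriched in control, as were 37.0% of all coding genes and 30.0% of all genes, and 81 of these were still enriched in UV. Their median ratio was 0.53 in control and 0.24 in UV. As the control ratio is part of the change, picking genes that fell favours high control ratios.

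Peaks are the stretches of transcript where IP reads pile up, and the deposited table gives counts for each. The same contrast was called for 404 of 41496 tested peaks, 158 higher (0.381%) and 246 lower (0.593%). The authors listed peaks of the UV and control arms apart, so 1 stretch can appear in both lists, and the called peaks joined to 128 higher and 158 lower loci. Of 23923 tested peaks of the UV list 122 were higher (0.510%) and 109 lower (0.456%). Of 17573 of the control list 36 were higher (0.205%) and 137 lower (0.780%). Because each list holds peaks found in its own arm of these libraries, a tilt towards that arm is built in and is not a separate result. Fitted without the replicate block, no peak was called by edgeR, with 3377 at an unadjusted p below 0.05. With the block, DESeq2 called 61 higher and 746 lower and limma 76 and 113. Left-out samples moved the count from 404 to 306, 2747 and 30 (Control 1, 2 and 3) and to 28, 105 and 29 (UV 1, 2 and 3). Size scaling without TMM gave 348 higher and 37 lower.

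Many called peaks lay in genes that were not called. For the higher peaks in genes that were not called, 146 in 113 genes, the median gene change was 0.02, and 83 of the 146 had their midpoint in the last exon. Peaks that fell lay in genes that leaned the same way, with a median gene change of −0.23, and 100 of the 246 had their midpoint between exons. Of all 41496 tested peaks, 18223 had their midpoint in the last exon and 7398 between exons. Tested peaks between exons were long, with a median of 2747 bases against 241 for all tested peaks. The peak and gene values share reads.

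**Figure D4:**
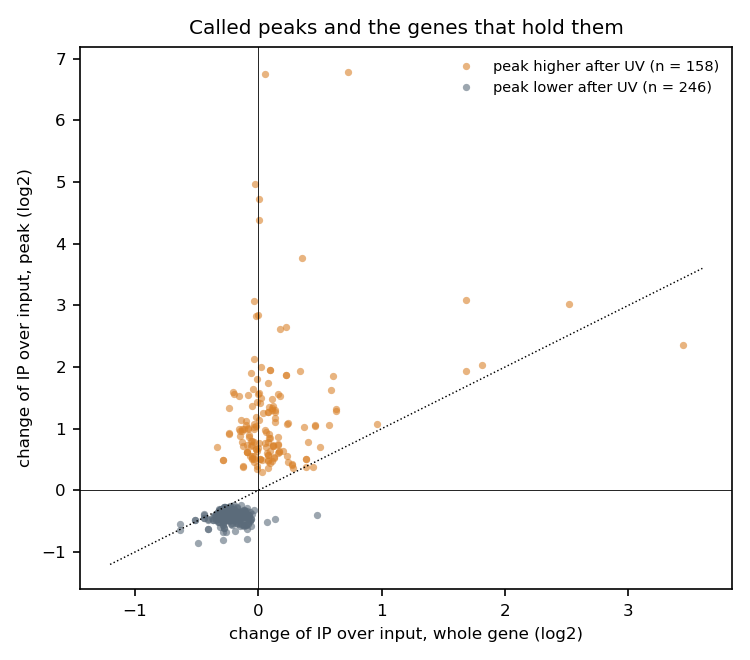
Change of IP over input of each called peak (y axis, log2) against that of the gene holding it (x axis, log2), for 158 higher (orange) and 246 lower (grey) peaks. The dotted line marks equal change; the genes holding the higher peaks had a median change of 0.05 and those holding the lower peaks one of −0.23.

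In the 3′ part of Mfap4 a peak in the last exon was higher after UV. At chr11:61488392-61488780 (GRCm38, plus strand), its log2 IP over input was 0.75, 0.28 and 0.19 in control and 1.29, 1.53 and 1.46 in UV. The groups were well apart. The change was 1.04 (SE 0.24, adjusted p = 0.0285), lost without Control 3 or any UV sample (adjusted p up to 0.197) and by limma. A shorter stretch inside it, chr11:61488661-61488780, taken from the control list, had 1.54, 2.33 and 1.19 in control and 1.42, 2.18 and 2.24 in UV and did not pass (0.42, SE 0.35, adjusted p = 0.636). The Virma peak with the smallest p, at chr4:11507965-11513083, had a change of −0.36 (SE 0.09, adjusted p = 0.0563). The peak in Zc3h13 at chr14:75331209-75332193 fell from 1.65, 1.85 and 1.62 to 1.26, 1.44 and 1.30 (−0.37, SE 0.08, adjusted p = 0.0202; lost when Control 3, UV 1 or UV 3 was left out, adjusted p up to 0.207, and under library size scaling, adjusted p = 0.088).

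The Col1a1, Mmp14 and Ltbp3 peaks were chosen after their values had been seen. Type I collagen, the main fibril of the dermis, had higher peaks in the last exons of both its chains. In Col1a1 the peak at chr11:94952503-94952832 went from 0.18, 0.45 and 0.33 to 1.23, 1.19 and 1.06 (0.84, SE 0.10, adjusted p = 1.68e-05). In Col1a2 the peak at chr6:4540528-4541066 went from 1.17, 1.12 and 1.20 to 2.15, 1.81 and 1.75 (0.73, SE 0.11, adjusted p = 0.000646). Both held in all 6 leave-out fits. In neither did the groups overlap, as in 149 of the 158 higher peaks. The changes of the whole genes were 0.10 for Col1a1 and 0.12 for Col1a2 and did not pass. They were 0.19 and 0.21 under library size scaling and ranged from 0.01 to 0.25 and 0.04 to 0.25 over the leave-out fits, of which only the one without Control 2 called either gene. Over the 16 interstitial collagens, 5 of 58 peaks were higher and none lower, all in these 2 genes. Mmp14, a collagenase of the cell surface, had a higher peak in its first exon (0.49, SE 0.12, adjusted p = 0.0405), and Ltbp3, which binds latent TGF-beta, in an internal exon (1.00, SE 0.24, adjusted p = 0.0416). Each of these was lost with limma and without any sample but Control 2 (adjusted p up to 0.278).

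Of the 68 peaks in keratinocyte differentiation genes, 5 were higher and 2 lower, with a median change of −0.06 and 25 above 0. Single peaks rose in keratin and filaggrin transcripts, the bulk products of the epidermis. The following peaks were chosen after their values had been seen. In Krt1, of the upper epidermis, the peak at chr15:101845428-101845547 in the last exon went from 0.72, 0.61 and 1.11 to 1.90, 1.57 and 1.94 (0.97, SE 0.11, adjusted p = 1.83e-05). In Krt6a, induced in wounded skin, a first-exon peak went from 0.33, 0.34 and 0.33 to 1.08, 1.14 and 0.94 (0.72, SE 0.10, adjusted p = 0.000125). Both held in all 6 leave-out fits. In Flg, the filaggrin precursor, a last-exon peak went from 0.93, 2.03 and 1.42 to 2.05, 2.48 and 2.59, with Control 2 just below UV 1 (0.96, SE 0.16, adjusted p = 0.00218; lost without Control 3 or UV 3, adjusted p up to 0.0903, and with DESeq2). Peaks in Krt10 (0.73, adjusted p = 0.00742), Krt14 (0.55, adjusted p = 0.0194) and Lor (0.56, adjusted p = 0.0232) rose with calls lost without Control 3 or any UV sample, and for Krt14 and Lor without Control 1 (adjusted p up to 0.243). The Lor call was also lost with limma. The genes holding these peaks had changes of −0.15 to 0.23.

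The median size of change was 0.40 for peaks that fell, against 0.97 for those that rose. The Ivl peak at chr3:92571138-92571552 went from 0.91, 0.94 and 0.93 to 0.59, 0.61 and 0.54 (−0.35, SE 0.07, adjusted p = 0.00929; lost when Control 3, UV 1 or UV 3 was left out, adjusted p up to 0.126, and under library size scaling, adjusted p = 0.0863). A last-exon peak in Casz1, a zinc finger transcription factor chosen after its values had been seen, went from 1.83, 1.84 and 1.87 to 1.23, 1.35 and 1.27 (−0.56, SE 0.09, adjusted p = 0.00121), and a first-exon peak in Eif3b from 1.13, 1.33 and 1.23 to 0.37, 0.71 and 0.58 (−0.67, SE 0.09, adjusted p = 0.000109). The latter 2 held in all 6 leave-out fits. Another Eif3b peak, at chr5:140443063-140443360, did not fall in the authors' own test (log2 change 0.23, FDR 0.999). Klf4, a factor of epidermal barrier formation, had a peak that fell by 0.35 (SE 0.07, adjusted p = 0.0164), and Dsc1, a desmosomal cadherin, one that fell by 0.37 (SE 0.07, adjusted p = 0.00772). Both calls were lost without Control 3, UV 1 or UV 3, for Klf4 also without UV 2 (adjusted p up to 0.178), and under library size scaling (adjusted p of 0.0918 for Klf4 and 0.0666 for Dsc1).

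**Figure D5:**
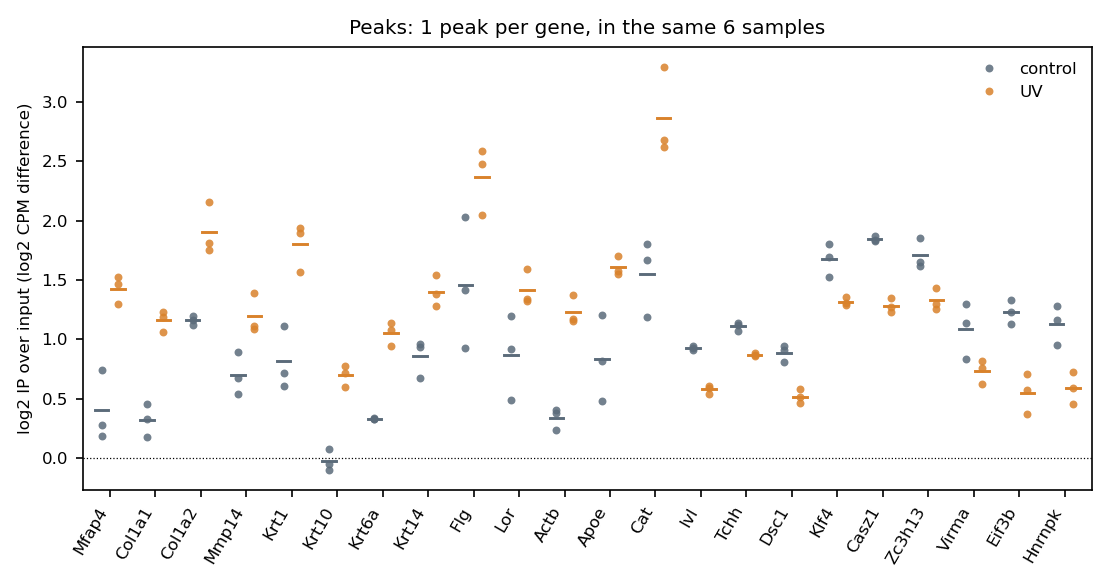
Log2 IP over input (y axis, difference of log2 CPM) of 1 peak per gene in each of 3 control (grey) and 3 UV samples (orange), bars marking means. The Col1a1 peak lies between 0.18 and 0.45 in control and between 1.06 and 1.23 in UV; the Virma peak did not pass the test.

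Among peaks of housekeeping and metabolic genes, also chosen after their values had been seen, the last-exon peak of Actb rose from 0.41, 0.38 and 0.23 to 1.37, 1.17 and 1.15 (0.89, SE 0.08, adjusted p = 1.53e-07), and that of Apoe from 0.48, 1.20 and 0.82 to 1.58, 1.55 and 1.70 (0.79, SE 0.11, adjusted p = 0.000472). Actb encodes cytoplasmic actin and Apoe a lipid carrier. Both held in all 6 leave-out fits. In Cat, which encodes catalase, a last-exon peak rose from 1.80, 1.19 and 1.66 to 3.29, 2.68 and 2.62 (1.28, SE 0.24, adjusted p = 0.00871; lost when Control 3, UV 1 or UV 3 was left out, adjusted p up to 0.146).

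In the authors' deposited table, which carries their own test of the same contrast, 45 of 42989 peaks had an FDR below 0.05, of which 43 were positive and 2 negative. Of these, 24 were also called here. The authors' deposited table gave a log2 change of 0.99 and an FDR of 0.00478 for the Krt1 peak, and 0.85 with an FDR of 0.171 for the Col1a1 peak. For the Mfap4 peak the authors' deposited table gave 1.01 and an FDR of 0.582.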

How the data were processed

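Mouse skin was profiled by m6A immunoprecipitation and sequencing. Raw read counts per gene and per peak were deposited by the authors; STAR 2.5.3a and build GRCm38 are listed, per the submitters' processing notes, and per the labels' protocols libraries were made with a stranded mRNA kit. Neither the counter nor the annotation, use of strand, handling of duplicates or peak caller is stated in the labels used. Of the low counts (1 to 20), 79.5% to 83.6% were even; the fit was repeated with halved counts. The deposited peak table also holds the authors' log2 fold change, p-value and FDR.

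Here, edgeR 4.0.16 (R 4.3.3) fitted 12 libraries with filterByExpr, TMM factors, the sample as a block (4 residual degrees of freedom) and separate IP effects for control and UV; the quasi-likelihood test of their difference was adjusted by Benjamini-Hochberg over all tested genes or peaks. Peak fits used the gene table's scaling. Sample ratios are differences of log2 CPM with a prior count of 2. The block is warranted: departures of IP and input from their group means correlated at 0.601 to 0.885 for the same number and −0.736 to −0.154 otherwise. Counts of 25022 genes were simulated from edgeR's own model, with changes planted in 50 genes per fold and direction, all above a mean of 5 CPM. This fit recovered 100% of the 2-fold and 86% to 88% of the 1.5-fold changes. Recovery among scarcer genes was not tested. DESeq2 1.42.0 and limma 3.58.1 were alternatives. Peak starts counted from 0 and are printed from 1. Symbols follow RefSeq, which 20554 tested genes matched.

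The named genes were Virma and Mfap4, the 12 largest called changes in each direction (at least 5 CPM in input, groups apart, no Gm or Rik names), up to 3 per gene list with the smallest p, and the peak with the smallest p in each. The contrast, members and lists were chosen with earlier results of these data known; lists and genes said to be chosen after the values are additional. No sequence of a peak is printed, as no genome was used here. Results for some items are not reported here.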

Additional observations from a re-analysis of the deposited data

Results flagged for a closer look

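This list covers called genes with at least 5 CPM in input and no Gm or Rik names, also those outside the naming rule. In 21 of them the 3 control samples lay on one side of 0 and the 3 UV samples on the other. The share of all tested genes that changed side in this way is not given here. For many of them the mean of one group was not told apart from 0. The difference itself passed edgeR's quasi-likelihood test in each, but most of these calls did not hold throughout. Only AY036118, Rnu1b1, Snord82 and Rps6-ps4 were called in all 6 leave-out fits, and Nabp1, Eif3b, Hspa9, Ppp2r2a and Sdc3 only in the one without Control 2 (adjusted p up to 0.268 for Hspa9). Under library size scaling every fall but that of Rps6-ps4 lost its call (adjusted p up to 0.437, for Hspa9). The change in log2 IP over input was upward for AY036118 (3.27), Rnu1b1 (1.44), Snord82 (0.98), Rpl17-ps9 (0.80), Atg9a (0.47), Sdc3 (0.46), Scarna2 (0.39) and Fau (0.28). It was downward for Rps6-ps4 (−0.55), Eloc (−0.40), Pet100 (−0.36), Srsf10 (−0.34), Ifi30 (−0.33), Rnps1 (−0.32), Nudt4 (−0.31), Nabp1 (−0.28), Ldb1 (−0.27), Msmo1 (−0.27), Eif3b (−0.26), Ppp2r2a (−0.26) and Hspa9 (−0.23). Several values lay close to 0, such as −0.01 in UV 2 for Srsf10 and −0.07 in Control 2 for AY036118. The place of 0 also depends on the scaling. Without TMM factors, the median IP over input of all tested genes moved from −0.04 to −0.30 in control and from −0.01 to −0.17 in UV. The sides given here are those under TMM scaling.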

How the results depend on the processing

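Against 399 called genes, the fit without the replicate block called 3, a block shared by number across conditions 2, and a 1.5-fold minimum 184. Leaving out 1 sample gave 128 to 1503. RLE size factors (474), separate TMM factors for IP and input (415), limma (352), no filter (453) and halved counts (428) stayed within 1.5 times. Against 404 called peaks, the fit without the replicate block called 0, with 3377 at an unadjusted p below 0.05, the block shared by number 0 (3808), RLE factors 625, DESeq2 807, limma 189, halved counts 663 and the 1.5-fold minimum 136, and leave-outs gave 28 to 2747. TMM factors of the peak counts gave 348 and no filter 457. UV against control in input called 1404 genes, with DESeq2 2601, without the filter 2152, with a replicate block by number 713 and with leave-outs 219 to 2100. In IP it called 570, with DESeq2 1364, without the filter 1426, with a replicate block by number 247 and with leave-outs 67 to 1248. Numbers did not pair control with UV samples (correlations of −0.258 to 0.144). The UV minus control difference in the peak share of IP over input, −0.0136, turned to 0.0186 without Control 3, with leave-outs from −0.0329. Mettl3 turned to 0.0223 under library size scaling and to 0.0044 without Control 2 (leave-outs from −0.196), and Mettl14 to 0.0173 under library size scaling. The cause was not tested.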

Other observations

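Some large changes belonged to scarce transcripts, which the naming rule left out and which were chosen here after their values had been seen. Gm22031, with 126 exon bases and a mean of 2.17 CPM in input, went from 0.09, 0.38 and 0.68 in control to 4.24, 3.12 and 3.39 in UV (log2 IP over input). Its change was 3.18 (SE 0.25, adjusted p = 4.52e-07 in edgeR's quasi-likelihood test), with −3.14 in input and 0.00 in IP. Mir6236, of 123 bases and 1.4 CPM, went from −1.59, −2.51 and −3.92 to 2.18, 0.95 and 2.07 (4.52, SE 0.63, adjusted p = 0.000381). Gm25794 (4.64) and Gm22682 (6.52), of 107 bases each, had means of 0.532 and 0.117 CPM in input. Ocstamp, a coding gene for osteoclast fusion at 0.549 CPM, rose by 2.87 (SE 0.47, adjusted p = 0.00152). Gm12778, of 333 bases and 0.989 CPM, had the one fall beyond 2-fold (−4.41, SE 0.94, adjusted p = 0.0166).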
